A study of Homo sapiens with 12 samples.

Results

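FOXA1, FOXA2 and FOXA3 are the 3 human genes of the FOXA (hepatocyte nuclear factor 3) family, and the regions described here are the deposited histone mark peaks that lie within 100 kb of them. Members were chosen by position alone: any peak with at least 1 base within 100 kb of FOXA1 (chromosome 14, 38058757 to 38064325, minus strand), FOXA2 (chromosome 20, 22561642 to 22565101, minus strand) or FOXA3 (chromosome 19, 46367518 to 46377055, plus strand), all in GRCh37. The rule found 173 of the 273822 peaks in the 3 lists, 46 at FOXA1, 56 at FOXA2 and 71 at FOXA3. By mark there were 43 H3K27ac, 110 H3K4me1 and 20 H3K4me3 peaks.

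The cells were HepG2, a cell line long established from a hepatocellular carcinoma that keeps many traits of liver cells, and they were untreated. Chromatin immunoprecipitation and sequencing (ChIP-seq) was done with antibodies to 3 histone modifications: H3K27ac, an acetylation of active promoters and enhancers, H3K4me3, a methylation of promoters, and H3K4me1, a methylation of enhancers and promoter flanks. The 12 libraries formed 4 groups of 3, 1 per mark and a control that was titled input although its antibody label names an anti-mouse IgG. Only 1 pooled peak list per mark was used, so each peak has a single value, there is no replicate error, and no difference below was tested; all groups are 1 cell line, and library depth is unknown.

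FOXA proteins are transcription factors with a forkhead (winged helix) DNA-binding domain that resembles the fold of linker histones. They are called pioneer factors because they bind their sites on nucleosomal DNA and allow other factors to bind there. FOXA1 and FOXA2 together are needed for the liver to form from endoderm. FOXA2 is also a marker of endoderm, floor plate and pancreatic cells, FOXA1 is known as a partner of hormone receptors in prostate and breast, and FOXA3 is a factor of liver and gut that acts on metabolic genes.

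Gene starts carried H3K4me3 and H3K27ac in all 3 members, so the bases before the start are shown for those in the RefSeq promoter table (GRCh38.p14), which held 2 of the 3, FOXA1 and FOXA3. Each line gives the 250 bases before the RefSeq start, 5′ to 3′ on the gene's strand, with matches to 6 short motifs in capitals.

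FOXA1, chr14:37595250-37595499, minus strand: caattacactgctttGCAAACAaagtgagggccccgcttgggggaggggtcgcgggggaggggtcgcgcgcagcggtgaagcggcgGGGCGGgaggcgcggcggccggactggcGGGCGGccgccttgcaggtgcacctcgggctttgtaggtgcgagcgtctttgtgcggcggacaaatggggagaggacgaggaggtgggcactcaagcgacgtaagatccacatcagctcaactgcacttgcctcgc
FOXA3, chr19:45864076-45864325, plus strand: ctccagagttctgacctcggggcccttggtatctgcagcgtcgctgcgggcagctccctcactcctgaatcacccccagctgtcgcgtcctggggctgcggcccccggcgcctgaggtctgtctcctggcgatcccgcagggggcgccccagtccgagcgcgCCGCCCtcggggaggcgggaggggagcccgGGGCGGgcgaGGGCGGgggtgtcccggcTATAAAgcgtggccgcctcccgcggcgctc

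The motifs, searched on both strands, were the forkhead core TGTTTAC and its variant TGTTTGC, the HNF1 core GTTAAT, the TATA box TATAAA, the GC box GGGCGG and the CCAAT box CCAAT, and no matches overlapped. The FOXA1 sequence held the forkhead variant TGTTTGC on the opposite strand, 229 to 235 bases before the start, a motif present in 3.23% of the 35116 promoters of the table at the same length. It also held 2 GC boxes, a motif in 42.6% of promoters. The FOXA3 sequence held a TATA box 25 to 30 bases before the start, as in 10.7% of promoters with that motif anywhere in the window, and 3 GC boxes. Neither sequence matched TGTTTAC (2.98% of promoters), GTTAAT (6.23%) or CCAAT (32.0%). Both were rich in CpG: FOXA1 had 26 CpG and 67.2% G or C, and FOXA3 had 28 and 75.2%, against medians of 11 and 58.0% over the table. A match is a description of letters and not a bound site. Gene lengths differ between the GRCh37 intervals of the rule and the RefSeq entries, so the starts may not be the same base in both.

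The starts of all 3 genes lay inside a wide H3K4me3 peak, a state whose share over all gene starts was not counted. At FOXA1 that peak was 4614 bp wide (chromosome 14, 38061876 to 38066489), with the authors' signal value of 35.4, higher than 68.0% of the H3K4me3 list. At FOXA2 it was 4297 bp wide (chromosome 20, 22562260 to 22566556) with a signal value of 52.0, higher than 87.2% of the list. At FOXA3 it was 5819 bp wide (chromosome 19, 46364985 to 46370803) with a signal value of 53.5, higher than 88.6%. All 3 stood above the list median of 13.3, and none reached the strongest 10%, which began at 54.9. In width they stood further up the list, wider than 96.3%, 94.9% and 98.9% of H3K4me3 peaks at FOXA1, FOXA2 and FOXA3. Each ran past the start on both sides, by 2164, 1455 and 2533 bp upstream and 2449, 2841 and 3285 bp downstream.

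**Figure D1:**
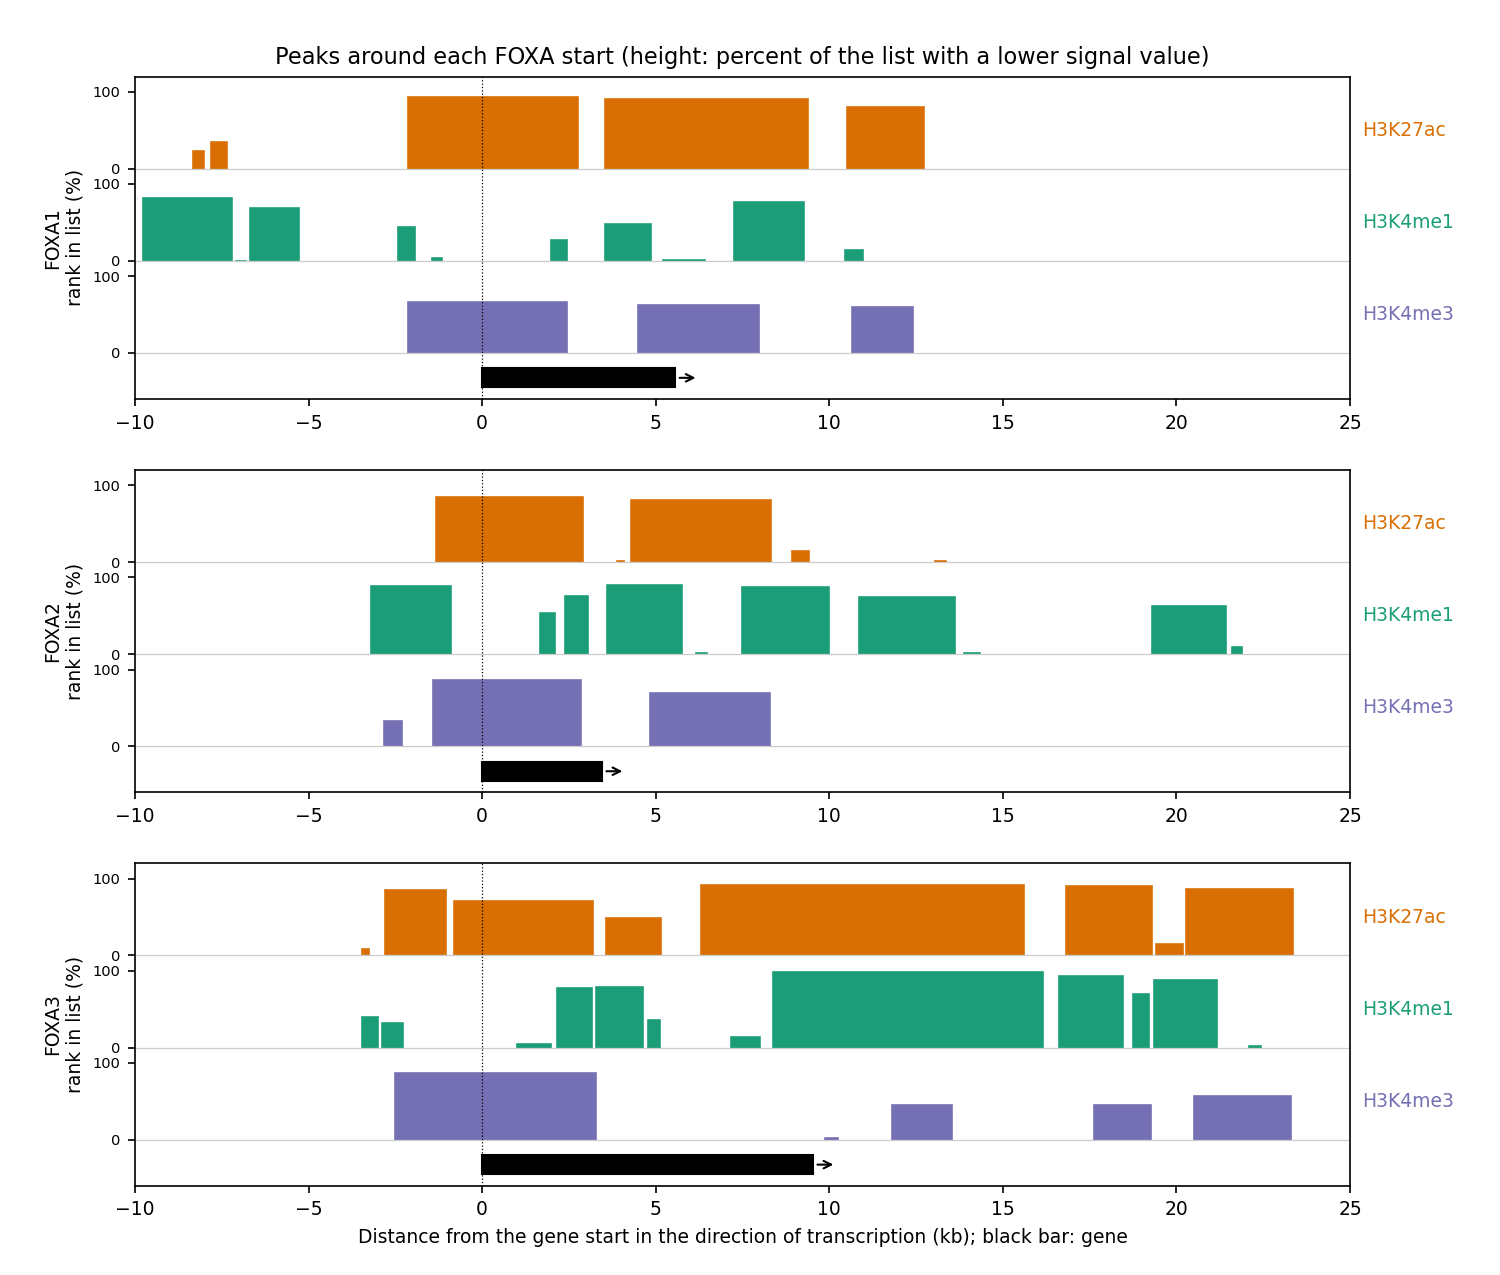
Peaks from 10 kb upstream to 25 kb downstream of each gene start, in kb in the direction of transcription; boxes span the peaks of each mark, their height is the percent of the list with a lower signal value, and the black bar is the gene. H3K27ac and H3K4me3 boxes cover all 3 starts, and H3K4me1 boxes stand to either side of them.

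Acetylation over the start differed in strength from gene to gene. The H3K27ac peak over the FOXA1 start had a signal value of 30.5, higher than 94.1% of the H3K27ac list, was 4920 bp wide, and was the strongest of the 11 H3K27ac peaks in its window. The peak over the FOXA2 start had a signal value of 18.0 (86.3% of the list lower; 4269 bp) and ranked number 4 of 14. The peak over the FOXA3 start had a signal value of 7.50 (72.4% lower; 4036 bp) and ranked number 10 of 18. By the H3K27ac peak over the start itself the order was FOXA1, FOXA2, FOXA3. By the strongest H3K27ac peak under the H3K4me3 peak of the start, FOXA2 (18.0) and FOXA3 (18.2) were nearly equal. At FOXA3 the acetylation there was listed as 2 peaks, and the stronger was not the one over the start. Joining peaks within 1000 bp merged these 2 with a weaker neighbour on each side (signal values 1.85 and 3.12). By H3K4me3 signal value the order was FOXA3, FOXA2, FOXA1, with FOXA3 and FOXA2 close together. With 1 value per peak, no neighbours in either order can be called different beyond their spread.

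The FOXA3 start lay beside a stronger acetylated peak. A second H3K27ac peak, 1802 bp wide (chromosome 19, 46364684 to 46366485) with a signal value of 18.2, had its summit 1.32 kb upstream of the start, and its near edge was 1033 bp away. Both H3K27ac peaks lay under the single H3K4me3 peak, of which 95.2% of bases were acetylated. In the RefSeq gene order the next gene upstream of FOXA3 is SYMPK, on the opposite strand and read away from it, which encodes symplekin, a scaffold of messenger RNA 3′ end processing. An arrangement of this kind was also present at FOXA1, where the next gene upstream is TTC6, read away from FOXA1 on the opposite strand. Which start a shared peak belongs to cannot be told apart in these lists.

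No FOXA start lay inside an H3K4me1 peak, and H3K4me1 stood on both sides of each. H3K4me1 peaks covered 6.47% of chromosomes 1 to 22 and X up to the last peak, so most single bases lie outside them. For none of the 3 marks was the share over all gene starts counted, for want of a GRCh37 annotation. The nearest H3K4me1 edges were 1166 bp upstream and 1952 bp downstream of the FOXA1 start, 887 and 1643 bp at FOXA2, and 2294 and 981 bp at FOXA3. At FOXA2 the upstream flank was a strong peak (2340 bp wide, signal value 6.34, higher than 90.2% of the H3K4me1 list). The single nearest H3K4me1 peak at the other genes had a low signal value, 2.27 upstream of FOXA1 and 2.28 downstream of FOXA3. These were higher than 5.46% and 5.90% of the list, but by −log10 p-value the 2 peaks stood above 58.6% and 15.1%. The flank peaks on the other side had signal values of 2.83 at FOXA1 and 2.94 at FOXA3, higher than 28.0% and 33.0%.

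H3K4me1 was also missing from the summits of the 3 H3K4me3 peaks over the starts. Over all 24446 H3K4me3 peaks, 40.6% of summits lay inside an H3K4me1 peak, but among the 7825 peaks at least as strong as the weakest peak over a FOXA start the share was 3.14%, so that its absence at these summits was the common state at this strength. Of the 6 positions 2000 bp to either side of the summits, 3 lay in H3K4me1, beside 52.2% for peaks of that strength. Of the 6 positions at 1000 bp, 1 did, beside 50.8%, and of the 6 at 500 bp, 1 did, beside 16.7%. These peaks were matched on signal value and not on width, in which the 3 peaks over the starts stood high.

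Along the genes, acetylation covered a similar share of each body, at 86.6% of the 5569 bp of FOXA1, 84.0% of the 3460 bp of FOXA2 and 84.8% of the 9538 bp of FOXA3. H3K4me3 covered 63.8%, 82.1% and 34.5% of these lengths, the lowest share at FOXA3, the longest gene. H3K4me1 covered 40.9% of FOXA1 (2275 bp), 33.0% of FOXA2 (1142 bp) and 61.0% of FOXA3 (5821 bp). The FOXA1 value came from peaks below the list median signal value of 3.42, the widest of them (1375 bp) close to it at 3.38. With the stronger 50% of each list the FOXA1 value was therefore 0 bp, while FOXA2 had 1142 bp and FOXA3 had 3588 bp. At a −log10 q-value of at least 5, FOXA1 kept 1881 bp, FOXA2 1142 bp and FOXA3 3962 bp.

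FOXA1 and FOXA2 each had a second H3K4me3 peak above the list median of 13.3 at or past the 3′ end of the gene. These 2 peaks were higher than 64.0% and 70.8% of the list. At FOXA1 it was 3503 bp wide (chromosome 14, 38056355 to 38059857) with a signal value of 31.3 and a summit 7.06 kb downstream of the start, and a further peak of 1786 bp (38051919 to 38053704; signal value 26.7) followed at 11.5 kb. Strong acetylation lay over both, with H3K27ac signal values of 26.6 and 13.8. At FOXA2 the second peak was 3474 bp wide (chromosome 20, 22556816 to 22560289), had a signal value of 38.1 and a summit 6.21 kb downstream, and lay under an H3K27ac peak with a signal value of 13.8.

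These peaks lie on the side of named neighbours. Next after FOXA2 in the RefSeq order, on the same strand, comes LINC00261, a long noncoding RNA gene known for its part in FOXA2 activation in endoderm; after FOXA1 comes MIPOL1, which ends towards it. The positions of those genes in GRCh37 were not used here, so no peak is assigned to them. At FOXA2 the summit of this second peak lay inside a small H3K4me1 peak (370 bp, signal value 2.18, higher than 3.46% of the list). This was so for 1 of the 6 H3K4me3 peaks in the FOXA windows with a signal value of at least 35.4. Over the list it was so for 3.14% of the 7825 peaks of that strength. FOXA3 had no H3K4me3 peak above the list median at its end, where the nearest was 399 bp wide with a signal value of 1.78. Farther on, H3K4me3 peaks with signal values of 23.6 and 30.2 had summits 22.8 and 38.1 kb downstream of the FOXA3 start.

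All 3 windows were more densely marked than most of the genome. For comparison, chromosomes 1 to 22 and X were cut from their first base into 15163 tiles of 200 kb, and the share of bases inside a peak was taken in each. No tile was left out, so gene deserts and any stretch where no read can be placed were included. H3K27ac covered 9.78% of the FOXA1 window, 11.8% of the FOXA2 window and 17.6% of the FOXA3 window, against a tile mean of 3.04%, and 89.7%, 92.2% and 96.7% of tiles had less. H3K4me3 covered 5.21%, 5.87% and 10.8% (mean 1.49%; 92.0%, 93.8% and 98.8% of tiles had less). H3K4me1 covered 12.7%, 28.1% and 26.1% (mean 6.47%; 81.3%, 95.0% and 93.9% had less). At least 1 mark was present on 17.0% of the FOXA1 window, 30.4% of the FOXA2 window and 32.3% of the FOXA3 window. Of the acetylated bases, 56.4% at FOXA1, 80.5% at FOXA2 and 67.0% at FOXA3 also lay in H3K4me1 peaks.

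Against tiles of their own chromosomes FOXA2 and FOXA3 stood lower, and FOXA1 stood about as before. The median tile of chromosome 19 had 5.66% of its bases in H3K27ac peaks and 4.00% in H3K4me3 peaks, whereas on chromosome 14 both medians were 0. Tiles where no read can be placed lower such medians, and their number per chromosome was not counted. Of the tiles of chromosome 19, 86.4% had less H3K27ac than the FOXA3 window and 88.8% had less H3K4me3. The corresponding shares were 91.0% and 90.5% for FOXA1 on chromosome 14, and 86.3% and 91.7% for FOXA2 on chromosome 20. For H3K4me1 they were 80.6% at FOXA1, 87.3% at FOXA2 and 80.7% at FOXA3.

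**Figure D2:**
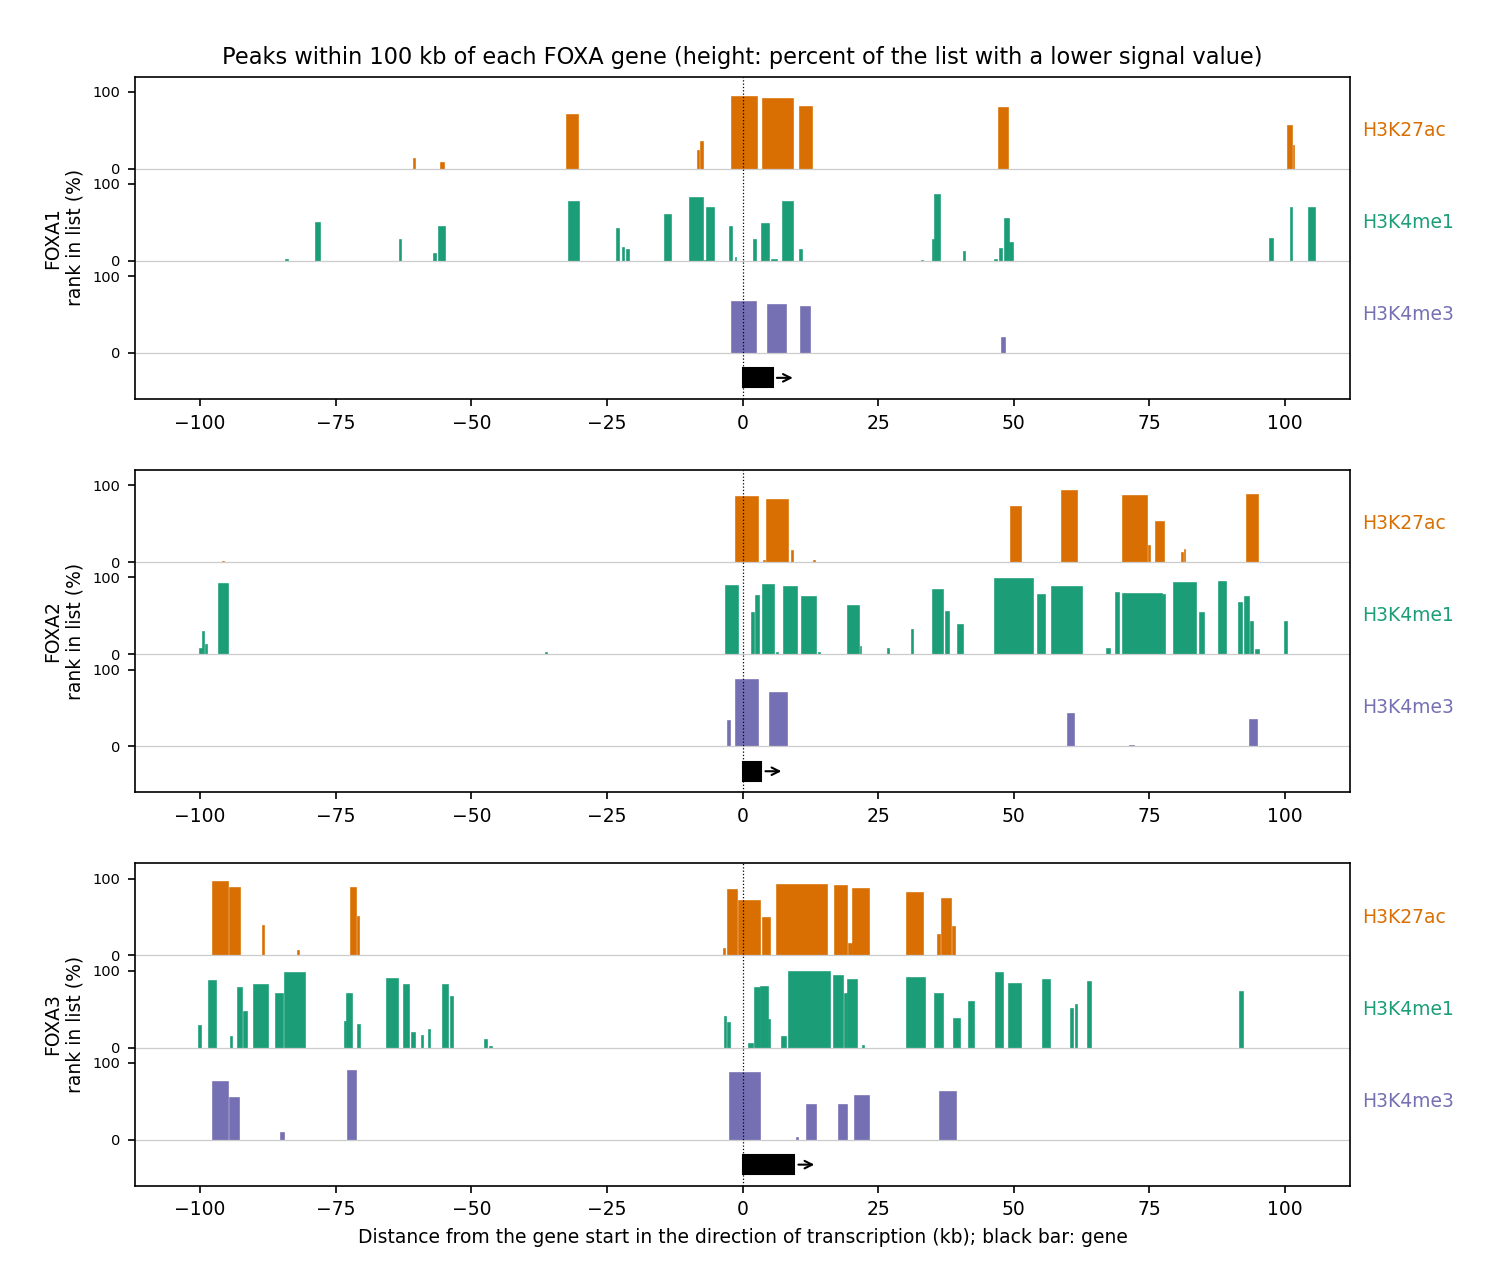
Peaks within 100 kb of each gene by distance from the gene start in kb, in the direction of transcription; box height is the percent of the list with a lower signal value and the black bar is the gene. At FOXA2 nearly all boxes lie downstream, with wide H3K4me1 boxes between 46 and 84 kb from the start.

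FOXA2 was the most one-sided of the 3 windows. H3K27ac covered 22.5% of the 100 kb downstream of its start and 1.65% of the 100 kb upstream, and H3K4me1 covered 51.1% downstream and 5.63% upstream. Past the peak over the start, 94.3 kb upstream held no H3K27ac peak, and the 1 peak beyond that gap was weak (284 bp, signal value 1.55, higher than 0.786% of the list). Downstream, 12 H3K27ac peaks were listed. At FOXA3 the downstream shares were 26.7% for H3K27ac and 32.4% for H3K4me1, with 10.2% and 22.3% upstream. FOXA1 had 12.7% of H3K27ac downstream and 6.12% upstream, while its H3K4me1 was nearly even, at 11.2% and 13.4%. For H3K4me3 the downstream and upstream shares were 9.92% and 2.01% at FOXA2, 8.55% and 2.16% at FOXA1, and 13.1% and 9.60% at FOXA3.

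**Figure D3:**
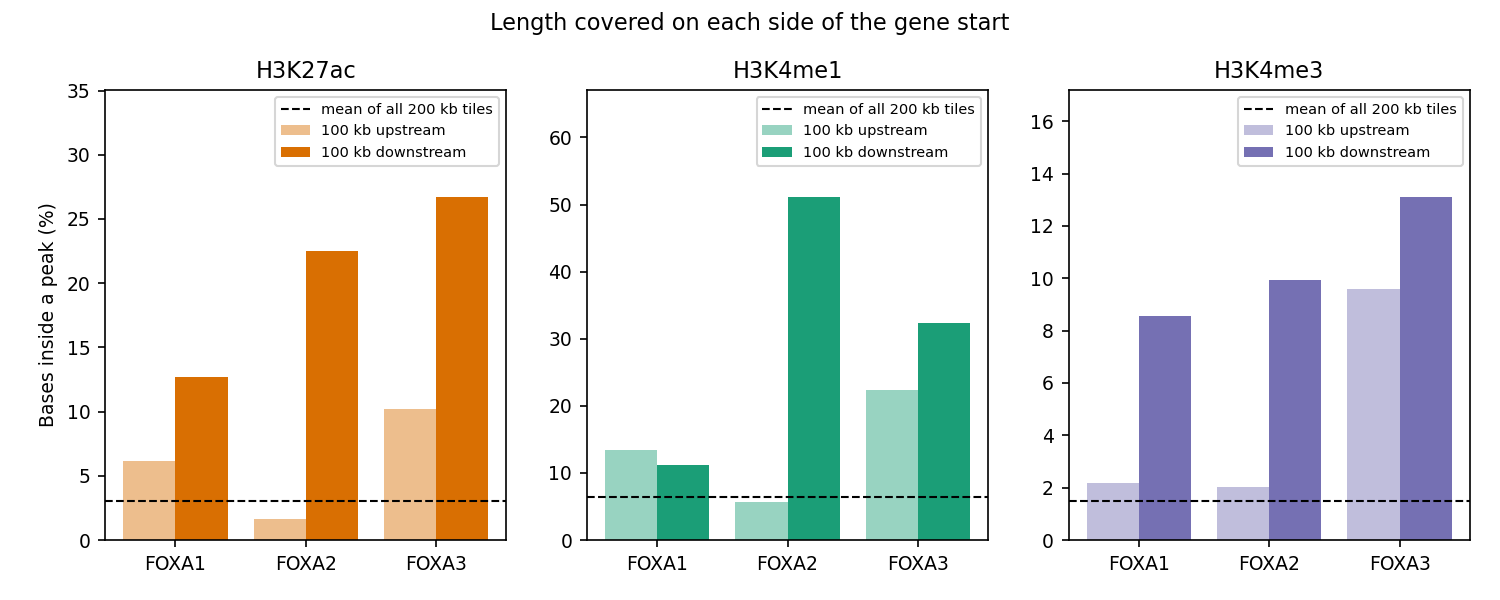
Percent of bases inside a peak in the 100 kb upstream (pale bars) and downstream (full bars) of each gene start, by mark; the dashed line is the mean of all 200 kb tiles. Downstream bars exceed upstream bars in every pair except H3K4me1 at FOXA1.

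The downstream side of FOXA2 held the strongest distal acetylation near that gene. An H3K27ac peak of 2948 bp (chromosome 20, 22503378 to 22506325), 60.4 kb from the start, had a signal value of 31.2, higher than 94.4% of the list and than the peak over the start. Further peaks lay 72.1 kb downstream (22490460 to 22495078, 4619 bp, signal value 19.7) and 93.8 kb downstream (22470120 to 22472351, 2232 bp, signal value 20.5). H3K4me1 covered 100% of the first, 99.8% of the second and 77.6% of the third. Each also overlapped H3K4me3, but only weakly, with H3K4me3 signal values of 8.45, 1.68 and 5.40, all below the list median of 13.3.

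The widest H3K4me1 peak of the FOXA2 window lay nearby. It was 7239 bp wide (chromosome 20, 22511573 to 22518811), with its summit 49.8 kb downstream of the start and a signal value of 10.0, higher than 98.9% of the list. Inside it was the strongest H3K27ac peak of that window without H3K4me3 (22513789 to 22515751, signal value 8.03).

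At FOXA3 the strongest region near the gene began inside it and ran past its 3′ end. An H3K27ac peak of 9335 bp (chromosome 19, 46373784 to 46383118), the widest of that mark in the 3 windows and wider than 99.4% of the list, had a signal value of 28.2 and its summit 12.6 kb from the start. An H3K4me1 peak of 7814 bp (46375869 to 46383682) overlapped it, with a signal value of 11.0, higher than 99.4% of the list. The H3K4me3 below it was weak, the stronger of its peaks having a signal value of 10.1. The acetylation beyond the end of FOXA3 thus had a higher signal value than that over its start (28.2 against 7.50). The gap was smaller against the other H3K27ac peak under the H3K4me3 peak of the start (18.2).

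More acetylated peaks followed on that side of FOXA3. They included peaks at 18.2 kb (46384319 to 46386805; signal value 24.7) and at 31.7 kb (46397654 to 46400791; 14.1), the latter with H3K4me1 and without H3K4me3. Next in the RefSeq order on this side are IRF2BP1, which encodes a transcriptional corepressor, and MYPOP, so peaks here need not belong to FOXA3. Beyond 39.2 kb downstream the rest of the window held no H3K27ac peak, while H3K4me1 peaks went on. Upstream, the strongest H3K27ac peak of the window (46269654 to 46272665; 40.9) lay 95.2 kb away, and the strongest H3K4me3 peak (46294692 to 46296222; 56.0), the only one of the 20 in the strongest 10%, lay 72.0 kb away. A further strong H3K4me3 peak (46269738 to 46272693; 43.4) accompanied the first of these. In the RefSeq order RSPH6A, DMWD and DMPK lie on that side after SYMPK, so peaks there need not belong to FOXA3 and were not assigned.

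On going from 100 to 200 kb on each side, H3K27ac counts rose most around FOXA1. There 100 kb held 11 H3K27ac peaks, 5 of them with H3K4me1 alone (59.8% over the list), and 200 kb held 26 and 20. The same counts rose from 14 and 9 to 19 and 11 at FOXA2, and from 18 and 7 to 29 and 13 at FOXA3. In number of peaks added, the other 2 marks rose least at FOXA1, though in proportion H3K4me1 rose about as much there as at FOXA2. H3K4me1 counts went from 36 to 62 at FOXA2, from 43 to 86 at FOXA3 and from 31 to 53 at FOXA1. H3K4me3 counts went from 6 to 9 at FOXA2 and from 10 to 21 at FOXA3, and stayed at 4 at FOXA1. Within 100 kb and outside the stretch from its start to 12 kb downstream, the strongest H3K27ac peak lay 48.2 kb downstream (chromosome 14, 38015310 to 38017148; signal value 12.6), over weak H3K4me3 (2.94). Upstream the strongest was 31.6 kb away (38094594 to 38096782; 7.28), with H3K4me1 along it and no H3K4me3. H3K4me1 in the FOXA1 window reached no higher than 5.77, at 36.1 kb downstream, and 0 of its 31 peaks were among the strongest 10% of the list, compared with 6 of 36 at FOXA2 and 6 of 43 at FOXA3.

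**Figure D4:**
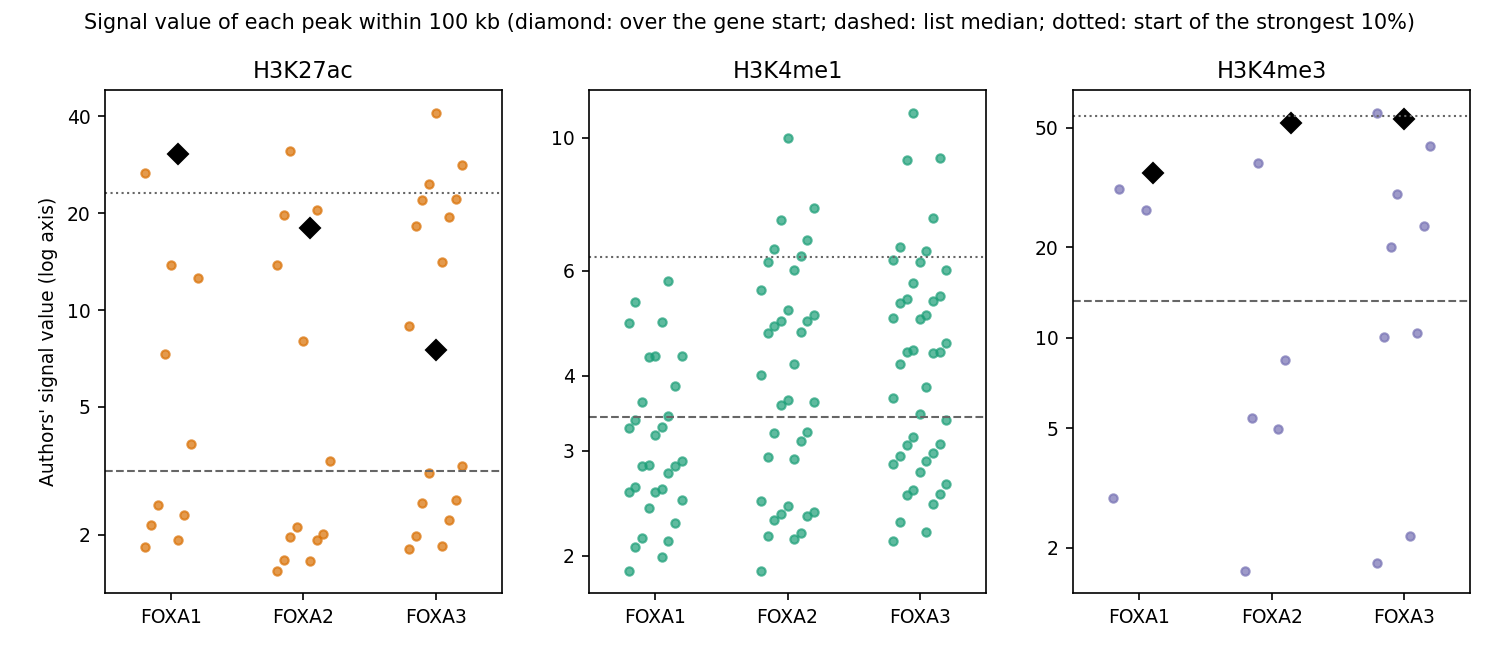
Signal value (log axis) of each peak within 100 kb of each gene, by mark; diamonds are the peaks over the gene starts, the dashed line is the list median and the dotted line the value where the strongest 10% of the list begins. The H3K27ac diamonds fall from 30.5 at FOXA1 to 18.0 at FOXA2 and 7.50 at FOXA3.

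Apart from a few strong regions, member peaks were not unusually strong within their lists. Of the H3K27ac members 6 of 43 (14.0%) were among the strongest 10%, which by construction holds 10.0% of each list, as were 12 of 110 H3K4me1 members (10.9%) and 1 of 20 H3K4me3 members (5.00%). The median signal values of H3K27ac, H3K4me1 and H3K4me3 members were 3.84, 3.52 and 21.8, beside 3.15, 3.42 and 13.3 over the lists. Median widths were 1613, 808 and 1780 bp, beside 723, 696 and 1536 bp.

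The acetylated peaks fell mostly into a class with H3K4me3 and a class with H3K4me1 alone. Of the 43 H3K27ac peaks, 20 overlapped H3K4me3 (46.5%; 31.7% over the list), 21 overlapped H3K4me1 without H3K4me3 (48.8%; 59.8% over the list) and 2, both at FOXA1, overlapped neither (4.65%; 8.52% over the list). By gene the first class had 4 of 11 peaks at FOXA1, 5 of 14 at FOXA2 and 11 of 18 at FOXA3, and the second had 5, 9 and 7. The count stayed highest at FOXA3 under 2 other overlap rules, but by how much depended on the rule. With windows of 200 bp to each side of the summits the first class held 4 peaks at FOXA1, 5 at FOXA2 and 6 at FOXA3. With 50% of the peak covered it held 3, 3 and 9. Of the 11 FOXA3 peaks, 3 lay along a single H3K4me3 peak (signal value 30.2) and 2 along the one over the start. Overlap with H3K4me3 did not always mean a promoter-like strength: for 6 of the 20 the strongest H3K4me3 peak was below its list median, close to the 31.2% of all such H3K27ac peaks, and 3 of these 6 were the distal regions of FOXA2. In the second class the highest signal values were 7.28 at FOXA1, 8.03 at FOXA2 and 14.1 at FOXA3, above 71.8%, 73.6% and 82.5% of the H3K27ac list.

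H3K4me1 without either other mark made up 58 of the 110 H3K4me1 members (52.7%; 61.6% over the list), with 18 at FOXA1, 20 at FOXA2 and 20 at FOXA3. The strongest of these had a signal value of 5.77 at FOXA1, of 7.63 at FOXA2 (chromosome 20, 22475929 to 22477372, 88.6 kb downstream) and of 9.25 at FOXA3 (chromosome 19, 46414046 to 46415559, 47.6 kb downstream). Among the H3K4me3 members, 18 of 20 overlapped both other marks (90.0%; 74.1% over the list) and the other 2 overlapped H3K4me1 only. Acetylation was present at 18 of the 20 H3K4me3 summits (76.4% over the list). H3K4me1 was present at 11 of the 20 (40.6% over the list), with 1 of 4 at FOXA1, 5 of 6 at FOXA2 and 5 of 10 at FOXA3.

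The −log10 p-values gave another order of the starts than the signal values. For H3K4me3 they were 6786 at FOXA2, 5758 at FOXA1 and 4760 at FOXA3, above 97.0%, 93.8% and 88.4% of the list, so that FOXA1 moved from the lowest to the middle place and FOXA3 from the highest to the lowest. For H3K27ac the order stayed FOXA1 (3101), FOXA2 (998) and FOXA3 (183). Chromosomes differed in this measure. Among H3K4me3 peaks with a signal value within 1.2-fold of that at the FOXA2 start, the median −log10 p-value was 7644 on chromosome 20 and 4390 over all chromosomes, whereas the same medians for FOXA1 were 2731 on chromosome 14 and 2803 over all. For FOXA3 they were 4250 on chromosome 19 and 4492 over all. The H3K4me3 values at the FOXA1 and FOXA3 starts were above both of their medians, and the FOXA2 value lay between its 2. For H3K27ac the FOXA2 medians were 1270 on chromosome 20 and 703 over all, with the FOXA2 value again between them. The part of the chromosome in the p-values of these genes was not tested.

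At the edges of the windows, the H3K27ac peaks just inside lay 95.9 kb (signal value 2.31) and 60.4 kb (1.93) from FOXA1, and the first ones outside lay 108 kb (4.12) and 102 kb (4.70) away. At FOXA2 those inside lay 89.3 kb (20.5) and 95.6 kb (1.55) away and those outside 150 kb (12.8) and 191 kb (2.95). At FOXA3 those inside lay 94.9 kb (40.9) and 29.1 kb (2.52) away and those outside 127 kb (3.68) and 122 kb (9.80).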

How the data were processed

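Per the submitters' processing notes, MACS2 was used and the build was hg19 (GRCh37); the aligner, thresholds and use of the control libraries are not given in the sources used here. The deposited lists hold, per peak, a signal value, the −log10 of its p-value and q-value, a score and a summit, all from the authors' peak calling on replicates pooled going by the list names. What the signal value is relative to is not stated, so it was compared only within a list and never between marks. Within a list it served to rank peaks, to set values and medians side by side and to pick peaks within 1.2-fold. The deposited score was not used. Depth per library is unknown.

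Peaks on chromosomes 1 to 22 and X served as background; positions count from 1. Peaks overlapped when 1 bp or more was common to both. Named peaks were those over or within 1 kb of a start, or else the nearest, the 3 strongest others per list and the 3 strongest H3K27ac peaks with H3K4me1 and without H3K4me3. Any other peak described was chosen after its values were seen. Alternatives were the stronger 50% of every list, a minimum −log10 q-value of 5, joining within 1000 bp, windows of 50 and 200 kb, summits within 100 kb, 50% of a peak covered, summit windows of 200 bp each way, equal numbers per list and ranking by p-value. Members, motifs and comparisons were chosen with earlier results of these data known. Planned counts at starts of other forkhead and liver genes and of cell type markers were not run, for want of a GRCh37 annotation, so the liver label was not checked. Gene order and promoters came from RefSeq (GRCh38.p14) tables. Interval scripts were tested on simulated data. Python 3.11.15, numpy 2.4.6, scipy 1.17.1 and matplotlib 3.10.9 were used.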

Additional observations from a re-analysis of the deposited data

How the results depend on the processing

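No paired analysis was possible because the lists pool the replicates, and for the same reason no replicate could be left out. All alternatives except the 7825 stronger H3K4me3 peaks used as background were planned. Of 77 alternative values summed over the 3 genes, 42 stayed within 1.5 times the main count and 35 did not. H3K27ac and H3K4me3 covered 3 of 3 starts and H3K4me1 covered 0 at a −log10 q-value of at least 5 and in the stronger 50% of each list. With the stronger 50%, the windows held 24 H3K27ac, 57 H3K4me1 and 11 H3K4me3 peaks. Of these, 12 H3K27ac peaks overlapped H3K4me3, 11 overlapped H3K4me1 alone and 1 neither, 32 H3K4me1 peaks were without other marks, and H3K4me1 covered 4730 bp of the gene bodies. Joined peaks numbered 25 for H3K27ac and 58 for H3K4me1, with 13, 11 and 1 in the H3K27ac classes and 30 H3K4me1 peaks alone. Windows of 50 kb held 25, 61 and 13 peaks of H3K27ac, H3K4me1 and H3K4me3, with 11 H3K27ac peaks with H3K4me1 only, 0 with neither and 27 H3K4me1 peaks alone. Windows of 200 kb held 74, 201 and 34, with 44 and 109 in the classes of H3K27ac with H3K4me1 only and of H3K4me1 alone. A −log10 q-value of at least 5 left 1 H3K27ac peak with neither methylation. Summit windows of 200 bp each way gave 14 such peaks and 90 H3K4me1 peaks alone. Equal numbers per list gave 2 H3K27ac peaks with H3K4me1 only, 1 with neither and 7 H3K4me1 peaks alone. Beside the summits of the H3K4me3 peaks over the starts, positions at 1000 bp inside H3K4me1 numbered 0 with the q-value minimum, 0 with the stronger 50% and 2 with joined peaks, and those at 500 bp numbered 0 with the stronger 50%. Fewer or joined peaks follow from how these alternatives are built. Depth, unknown here, limits every count of weak peaks.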
